A study of Mus musculus with 60 samples.

Results

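Genes of the early oligodendrocyte lineage, 10 of the 47643 gene symbols in the deposited table, were followed in mouse hippocampus after tumour injection. They were taken by name from the table: Pdgfra, Cspg4 and Cacng4 for the precursor stage, Olig1, Olig2 and Sox10 as transcription factors of the whole lineage, and Gpr17, Enpp6, Bmp4 and Neu4 for newly formed cells. All 10 were among the 15608 genes tested. RNA-seq libraries, 60 in all, came from female mice given as 2 months old at every week of collection. The mice received cachectic melanoma cells (CAC), melanoma cells that are not cachectic (NCAC), or a mock injection (Con), and tissue was taken at 2, 4, 6 and 8 wk. At these times the CAC group had 4, 5, 5 and 7 libraries, the NCAC group 5, 5, 4 and 5, and the Con group 5 at each. The labels disagree on the strain: the samples are labelled C57BL6/J, while the series' design names NCI Ath/nude mice. The extraction text also mentions another tumour line, LLC, that matches no group, and no label says which melanoma lines were injected or whether each library is a different mouse. The p-values therefore measure the spread between these samples, which may be partly technical.

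Oligodendrocyte precursor cells are the dividing glial cells of the adult brain that give rise to myelin-forming oligodendrocytes. They depend on platelet-derived growth factor, whose receptor is encoded by Pdgfra, and carry the proteoglycan NG2, encoded by Cspg4. As they leave the cell cycle and differentiate, they pass through a short-lived newly formed stage in which Gpr17, Enpp6, Bmp4 and Neu4 are switched on, before the genes of compact myelin are expressed. Olig1, Olig2 and Sox10 are present from precursor to mature cell, so their level follows the whole lineage. In the hippocampus, this production of new oligodendrocytes continues into adult life and falls with age.

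The promoters of Enpp6, Olig2 and Neu4 are shown because these were the genes of the 10 that differed between CAC and Con mice at 8 wk. RefSeq promoters (build GRCm38.p6) matched 6 of the 10 genes, namely Pdgfra, Cspg4, Olig2, Enpp6, Bmp4 and Neu4. Each sequence is the 250 bases before the RefSeq start, on the plus strand, at chr8:46986637-46986886 for Enpp6, chr16:91225300-91225549 for Olig2 and chr1:94020243-94020492 for Neu4. Capitals mark ACAAT or its reverse complement ATTGT, the core bound by SOX proteins such as Sox10.
Enpp6: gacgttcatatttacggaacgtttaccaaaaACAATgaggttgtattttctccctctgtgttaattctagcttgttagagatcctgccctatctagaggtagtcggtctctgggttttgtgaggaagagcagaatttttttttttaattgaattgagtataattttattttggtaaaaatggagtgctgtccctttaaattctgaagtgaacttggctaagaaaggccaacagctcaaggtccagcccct
Olig2: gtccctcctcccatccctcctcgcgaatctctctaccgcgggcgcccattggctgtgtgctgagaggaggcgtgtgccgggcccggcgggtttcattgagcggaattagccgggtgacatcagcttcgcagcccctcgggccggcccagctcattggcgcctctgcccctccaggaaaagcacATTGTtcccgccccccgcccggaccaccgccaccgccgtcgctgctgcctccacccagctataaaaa
Neu4: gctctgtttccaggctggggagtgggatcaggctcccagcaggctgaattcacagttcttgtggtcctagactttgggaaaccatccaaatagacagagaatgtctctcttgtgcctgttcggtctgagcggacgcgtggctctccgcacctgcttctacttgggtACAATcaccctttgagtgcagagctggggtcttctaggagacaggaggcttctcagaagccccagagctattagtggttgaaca

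Each of the 3 windows held 1 match to ACAAT on either strand. The match began 219 bases before the start in Enpp6, 67 in Olig2 and 84 in Neu4. Of 32851 RefSeq promoters of the same length, 27.7% held it, so these letters are common. The E-box CAGCTG, a sequence that Olig2 can bind, was in none of the 3 windows and in 13% of all promoters. The looser form CANNTG, which contains CAGCTG, was found once in Neu4 and not in Enpp6 or Olig2, against 66.2% of all promoters. The windows differed in base composition, with 38.4% G or C in Enpp6, 53.6% in Neu4 and 66.8% in Olig2.

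Values are in TPM, a transcript level scaled by gene length and library total. Differences are of mean log2(TPM + 0.5), with limma's standard error (SE) and p-values adjusted over all 15608 tested genes. A gene is said to rise or fall where its adjusted p was below 0.05. Depth, recovered from the TPM steps, was 32388189 to 42046797 reads per library, of which Enpp6 took 38 to 298 and Bmp4 35 to 159. The 9 hippocampal neuron markers, such as Prox1 and Wfs1, were above 0 in every library and summed to 568 to 1016 TPM. Markers of neighbouring tissue or blood stood out in 8 libraries by more than 1.5 on the log2 scale above the median library. Striatum markers did so in CAC replicate 1 at 2 wk, CAC replicates 1 and 4 at 4 wk and Con replicate 2 at 4 wk, thalamus markers in CAC replicate 1 at 2 wk, and choroid plexus markers in CAC replicate 4 at 2 wk and NCAC replicate 3 at 4 wk. Red blood cell markers did so in CAC replicates 1 and 2 at 4 wk and CAC replicate 3 at 8 wk. Leaving these 8 out removes 3 of 5 CAC libraries at 4 wk and 2 of 4 at 2 wk, and calls that end without them are given with that value.

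All 10 genes were detected in all 60 libraries, at levels that differed widely between genes. On the TPM scale Olig1 was the highest, with group means of 52.6 to 73.2 TPM, followed by Gpr17 at 24.5 to 47.7 TPM, Sox10 at 27.4 to 34.1 TPM and Pdgfra at 24.2 to 32.1 TPM. Cacng4, Olig2, Neu4 and Cspg4 lay between 8.24 and 26.6 TPM, and Bmp4 and Enpp6 were lowest, at 2.75 to 4.80 TPM and 1.6 to 5.41 TPM. Across the 12 groups the highest mean was 3.37 times the lowest for Enpp6, 1.95 times for Gpr17 and 1.74 times for Bmp4. For the other 7 genes this ratio was 1.19 to 1.62.

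**Figure D1:**
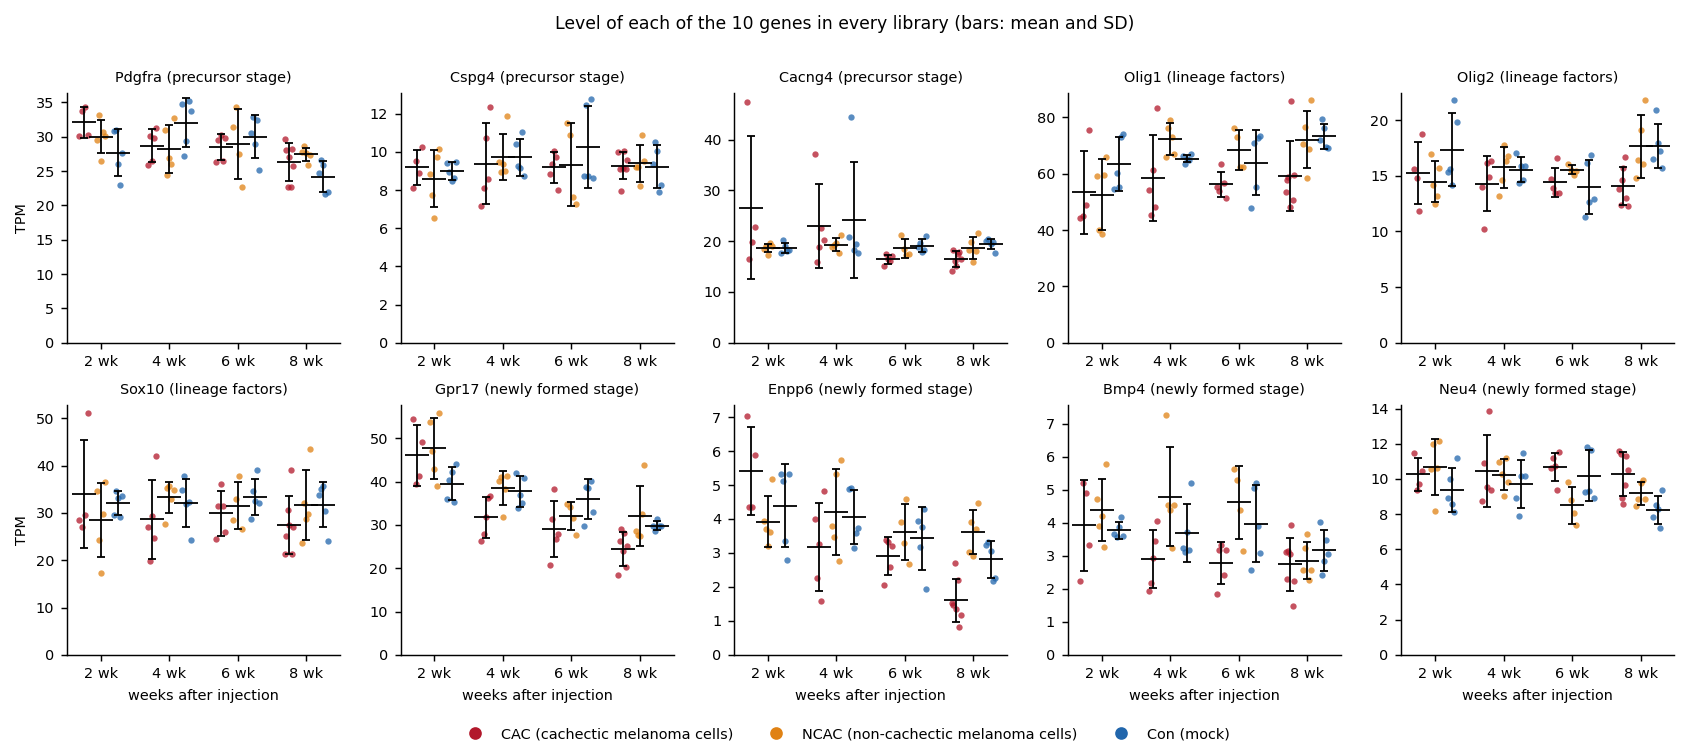
TPM of each of the 10 genes (y axes, from 0) in every library by week after injection (x axes), with CAC, NCAC and Con libraries as red, orange and blue points and bars for the group mean and SD. Enpp6 in CAC mice lies between 0.809 and 2.71 TPM at 8 wk, below all 5 NCAC libraries of that week, and 3 Cacng4 points near or above 37 TPM come from libraries rich in striatum markers.

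Enpp6, a choline-specific phosphodiesterase on the surface of newly forming oligodendrocytes, differed most between the injections at 8 wk. The gene (ENSMUSG00000038173) lies on the plus strand at chr8:46986887-47096762 (GRCm38, GENCODE M21). In CAC mice it was 1.51, 1.47, 2.71, 1.36, 2.19, 0.809 and 1.17 TPM, with a median of 1.47 TPM. In NCAC mice it was 3.04, 3.93, 2.90, 3.71 and 4.48 TPM, and in Con mice 3.23, 3.32, 3.05, 2.17 and 2.27 TPM. Every CAC library was below every NCAC library, while the CAC and Con ranges overlapped, with 2 of 7 CAC libraries at or above the lowest Con library. The mean was 1.6 ± 0.643 TPM in CAC (SD, n = 7), 3.61 ± 0.652 TPM in NCAC (n = 5) and 2.81 ± 0.548 TPM in Con (n = 5). Enpp6 was thus lower in CAC than in NCAC mice by a log2 difference of -1.01 ± 0.20 (SE, adjusted p = 0.00291, limma), which is 0.498 times the NCAC level. It was the only one of the 10 genes past the threshold in this comparison, where 1.83% of all tested genes passed. In bulk tissue, fewer cells of a type and less RNA per cell cannot be told apart.

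Relative to Con at 8 wk, the Enpp6 difference was -0.69 ± 0.20 (adjusted p = 0.0176, limma), or 0.619 times the Con level. Enpp6, Olig2 and Neu4 were the 3 of 10 genes called here, where 14.5% of all tested genes passed. The CAC-NCAC difference of Enpp6 stayed past the threshold without any one library, with log2 differences of -1.12 to -0.90. The CAC-Con difference was lost without CAC replicate 6 (adjusted p = 0.053) or without Con replicate 1 (adjusted p = 0.0504). CAC replicate 3, rich in red blood cell markers, had the highest Enpp6 level of its group. Without it the log2 difference was -1.12 against NCAC and -0.80 against Con.

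At earlier weeks Enpp6 was not past the threshold in any comparison of injections. The CAC means were 5.41 ± 1.30, 3.18 ± 1.29, 2.90 ± 0.567 and 1.6 ± 0.643 TPM at 2, 4, 6 and 8 wk. The NCAC means were 3.92 ± 0.745, 4.22 ± 1.26, 3.61 ± 0.820 and 3.61 ± 0.652 TPM, and the Con means 4.39 ± 1.21, 4.06 ± 0.800, 3.43 ± 0.923 and 2.81 ± 0.548 TPM. Thus CAC mice held both the highest and the lowest of the 12 group means, at 2 wk and at 8 wk. In the order of the means, CAC at 8 wk was followed by Con at 8 wk, CAC at 6 wk and CAC at 4 wk. The place of CAC at 4 wk rests on the 3 libraries rich in other tissue: without the rich libraries it averaged 4.04 TPM (n = 2), against 3.94 TPM in NCAC and 3.84 TPM in Con at 4 wk (n = 4 each). The groups between Con at 8 wk and Con at 2 wk in that order have neighbouring means within 1 SD of each other.

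Between 8 wk and 2 wk, Enpp6 fell in CAC mice. The 7 values at 8 wk, given above, all lay below the 2 wk values of 7.04, 4.37, 4.37 and 5.88 TPM. The log2 difference was -1.52 ± 0.21 (adjusted p = 7.2e-06, limma), or 0.349 times the 2 wk level. In NCAC mice the same difference was -0.10 ± 0.22 (adjusted p = 0.784), and in Con mice -0.54 ± 0.22 (adjusted p = 0.0905). The CAC-NCAC difference itself was -1.01 at 8 wk, against 0.41 at 2 wk, a change of -1.42 ± 0.30 (adjusted p = 0.0289, limma interaction). Enpp6 was the only one of the 10 genes called in that interaction, against 0.237% of all tested genes. Without CAC replicate 1 at 2 wk, rich in striatum and thalamus markers and highest in Enpp6, the change was -1.29 (adjusted p = 0.114). The call was lost without any 1 of 8 of the 21 libraries it compares, this one included. With all rich libraries left out together, the change was -1.47 (adjusted p = 0.0155, limma), with 2 CAC libraries at 2 wk.

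The change of the CAC-Con difference of Enpp6 was -0.98 ± 0.30, with a 95% interval of -1.59 to -0.37 and an adjusted p of 0.248. None of the 10 genes passed in that interaction, where 1 of the tested genes did (0.00641%), or in the NCAC-Con interaction, where none did (0%). At an unadjusted p under 0.05 there were 3 and 0 of the 10 genes in these 2 interactions, beside 9.64% and 3.04% of all tested genes. With voom on the recovered reads, 0 of the 10 were also called in both.

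Gpr17, a receptor that marks cells between precursor and myelinating oligodendrocyte and holds back their maturation, was lower at 8 wk than at 2 wk under all 3 injections. In CAC mice it was 18.4, 26.3, 29.1, 24.1, 28.1, 20.4 and 25.1 TPM at 8 wk, and 54.4, 39.4, 41.3 and 49.1 TPM at 2 wk. In NCAC mice it was 28.5, 27.8, 27.3, 32.4 and 43.9 TPM at 8 wk, and 53.7, 47.1, 42.9, 39.1 and 55.7 TPM at 2 wk. In Con mice it was 29.7, 28.5, 31.3, 29.8 and 29.7 TPM at 8 wk, and 35.9, 40.3, 42.2, 35.2 and 44.1 TPM at 2 wk. The 8 wk and 2 wk libraries did not overlap in CAC or Con mice, and in NCAC mice 1 of the 8 wk libraries, replicate 5, reached the 2 wk range. The log2 difference was -0.90 ± 0.13 in CAC (adjusted p = 6.43e-06, limma), -0.58 ± 0.13 in NCAC (adjusted p = 0.00813) and -0.40 ± 0.13 in Con (adjusted p = 0.0373). The NCAC call was lost without NCAC replicate 2 at 2 wk (adjusted p = 0.0929), and the Con call was lost in 9 of 10 fits that left out 1 library, with adjusted p up to 0.0852.

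These falls were not shown to differ between injections. The CAC-Con difference of Gpr17 changed by -0.50 ± 0.18 between 2 wk and 8 wk (adjusted p = 0.317), and the CAC-NCAC difference by -0.32 ± 0.18 (adjusted p = 0.515). At 8 wk Gpr17 averaged 24.5 ± 3.91 TPM in CAC mice, 32.0 ± 6.97 TPM in NCAC mice and 29.8 ± 1.01 TPM in Con mice. The difference was -0.37 ± 0.12 against NCAC (adjusted p = 0.0802) and -0.29 ± 0.12 against Con (adjusted p = 0.0766). Both missed the threshold as deposited. Under median-of-ratios scaling they passed it, at -0.39 (adjusted p = 0.049) and -0.35 (adjusted p = 0.0426), as they did without the 8 libraries rich in other tissue, at -0.41 (adjusted p = 0.0202) and -0.34 (adjusted p = 0.0309). Gpr17 shares 188 of its 5195 exon bases with Lims2 on the opposite strand, and whether the counting used strand is not given in the sources used here, so reads from these bases cannot be assigned. Lims2, itself among the other newly formed genes listed here, averaged 13.8 TPM. It fell by 0.49 between 8 wk and 2 wk in CAC mice (adjusted p = 0.00306, limma), and its part in the Gpr17 level was not tested.

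Bmp4, a secreted bone morphogenetic protein made by newly formed oligodendrocytes and known to restrain their maturation, was low in every group. At 4 wk it was 1.95, 2.17, 2.93, 3.44 and 4.05 TPM in CAC mice and 7.28, 4.55, 4.39, 3.23 and 4.53 TPM in NCAC mice. At 6 wk it was 1.85, 3.18, 3.34, 2.41 and 3.19 TPM in CAC mice and 5.65, 5.30, 4.39 and 3.15 TPM in NCAC mice. The CAC libraries were mostly the lower ones, with overlap at both weeks. The log2 difference from NCAC was -0.63 ± 0.20 at 4 wk (adjusted p = 0.175) and -0.63 ± 0.22 at 6 wk (adjusted p = 0.102), neither past the threshold. Without the rich libraries, which include the CAC replicates at 1.95 and 2.17 TPM, the 4 wk difference was -0.40 (adjusted p = 0.963). Between 8 wk and 2 wk in NCAC mice Bmp4 differed by -0.53 ± 0.20 (adjusted p = 0.0643), and without the rich libraries this passed the threshold (adjusted p = 0.048). At 8 wk the means were 2.75 ± 0.804 TPM in CAC, 2.86 ± 0.565 TPM in NCAC and 3.17 ± 0.620 TPM in Con. With 35 to 159 reads per library, Bmp4 had the widest spread between replicates of the 10 genes, a median coefficient of variation of 23.8%, just above the 23.4% of Enpp6.

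Neu4, a sialidase that trims sialic acid from glycoproteins and glycolipids, moved the other way at 8 wk. It was 11.6, 11.4, 8.92, 8.58, 9.65, 11.3 and 10.5 TPM in CAC mice, 8.49, 8.84, 9.79, 9.92 and 8.86 TPM in NCAC mice, and 7.84, 8.52, 8.28, 7.19 and 9.35 TPM in Con mice. Of the 7 CAC libraries, 5 were above all Con libraries. Neu4 was higher in CAC than in Con by 0.30 ± 0.10 (adjusted p = 0.0347, limma), or 1.23 times the Con level, and not past the threshold against NCAC (0.15 ± 0.10, adjusted p = 0.489). The call was lost under median-of-ratios scaling (adjusted p = 0.0741), with voom on recovered reads (adjusted p = 0.0772), with the trend on GC content and length removed (adjusted p = 0.0566) and in 7 of 12 fits that left out 1 library. Between 8 wk and 2 wk in CAC mice, Neu4 differed by 0.00 ± 0.11, with a 95% interval of -0.21 to 0.21, so Neu4 did not follow Gpr17 and Enpp6.

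**Figure D2:**
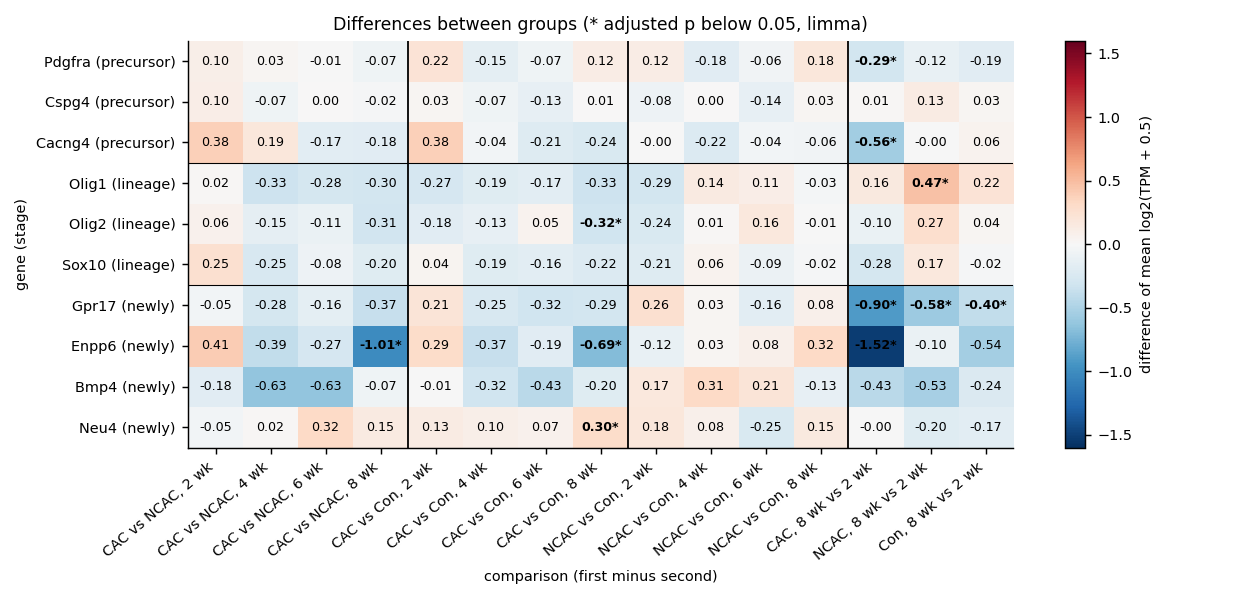
Difference of mean log2(TPM + 0.5) for the 10 genes (rows) in 15 comparisons (columns), with the number in each cell, blue for lower and red for higher in the first-named group, and a star where limma's adjusted p was below 0.05. The darkest cells are Enpp6 in CAC at 8 wk against 2 wk (-1.52) and against NCAC at 8 wk (-1.01), and no cell of the NCAC-Con block has a star.

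In the main fit of all 60 libraries, the 3 precursor genes showed no difference between the injections past the threshold at any week. Pdgfra, the receptor for platelet-derived growth factor, was 29.6, 28.0, 22.6, 27.1, 22.7, 28.2 and 25.8 TPM in CAC mice at 8 wk, 27.8, 28.6, 27.6, 25.9 and 27.4 TPM in NCAC mice, and 24.8, 26.7, 25.9, 21.6 and 22.0 TPM in Con mice. The groups overlapped, and the difference was -0.07 ± 0.09 against NCAC (95% interval -0.24 to 0.10) and 0.12 ± 0.09 against Con (95% interval -0.06 to 0.29). Between 8 wk and 2 wk it fell in CAC mice, by 0.29 on the log2 scale (SE 0.09, adjusted p = 0.0138, limma) against values at 2 wk of 30.2, 33.7, 34.4 and 30.2 TPM, all above the 8 wk values. That call was lost with the trend on GC content and length removed (log2 difference -0.13, adjusted p = 0.221) and without the libraries rich in other tissue (-0.25, adjusted p = 0.146). Meningeal fibroblasts also express Pdgfra. Of their 9 markers, all above 0 in every library, 5 fell in the same comparison, where 31% of all tested genes were called. Their sum was 128 to 203 TPM in CAC mice at 8 wk and 118 to 329 TPM at 2 wk. Their part in the result was not tested.

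Cspg4, the NG2 proteoglycan core protein, was the flattest gene, with group means of 8.60 to 10.3 TPM. At 8 wk it averaged 9.28 ± 0.713 TPM in CAC, 9.40 ± 0.961 TPM in NCAC and 9.23 ± 1.12 TPM in Con mice. The CAC difference was -0.02 ± 0.11 against NCAC (95% interval -0.24 to 0.21) and 0.01 ± 0.11 against Con (95% interval -0.21 to 0.24), and 0.01 ± 0.12 between 8 wk and 2 wk in CAC mice. Pericytes of small vessels express Cspg4 too. Of their 9 markers, all above 0 in every library, 6 fell between 8 wk and 2 wk in CAC mice, where 31% of all tested genes were called. Their sums were 175 to 237 TPM at 8 wk and 278 to 299 TPM at 2 wk, and their part in the Cspg4 level was not tested.

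Cacng4, a TARP subunit that controls the traffic and gating of AMPA receptors, was highest in the 3 libraries richest in striatum markers. It was 47.4 TPM in CAC replicate 1 at 2 wk, 37.2 TPM in CAC replicate 1 at 4 wk and 44.3 TPM in Con replicate 2 at 4 wk. In the other 57 libraries it was 14.2 to 22.7 TPM, also in CAC replicate 4 at 4 wk, which was rich in striatum markers by a smaller margin. Cacng4 fell by 0.56 between 8 wk and 2 wk in CAC mice (SE 0.17, adjusted p = 0.0108, limma), with 16.5 ± 1.52 TPM at 8 wk and 26.6 ± 14.1 TPM at 2 wk. Without CAC replicate 1 at 2 wk the log2 difference was -0.24 (adjusted p = 0.269). The call was also lost without the libraries rich in other tissue, at -0.23 (adjusted p = 0.101). With them left out, the CAC-Con difference at 8 wk was called instead, at -0.23 (adjusted p = 0.0162), close to the -0.24 ± 0.16 with all libraries (adjusted p = 0.309). A limma fit of the compared groups only also called it, at -0.24 (adjusted p = 0.0297). At 6 wk every CAC library, at 15.0, 17.4, 16.5, 16.1 and 17.1 TPM, was below every Con library, at 18.9, 19.6, 17.8, 18.2 and 21 TPM, with a difference of -0.21 ± 0.17 (adjusted p = 0.655). Without the rich libraries, none of which is in these groups, the SE was smaller, at -0.21 ± 0.07 (adjusted p = 0.158, limma).

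**Figure D3:**
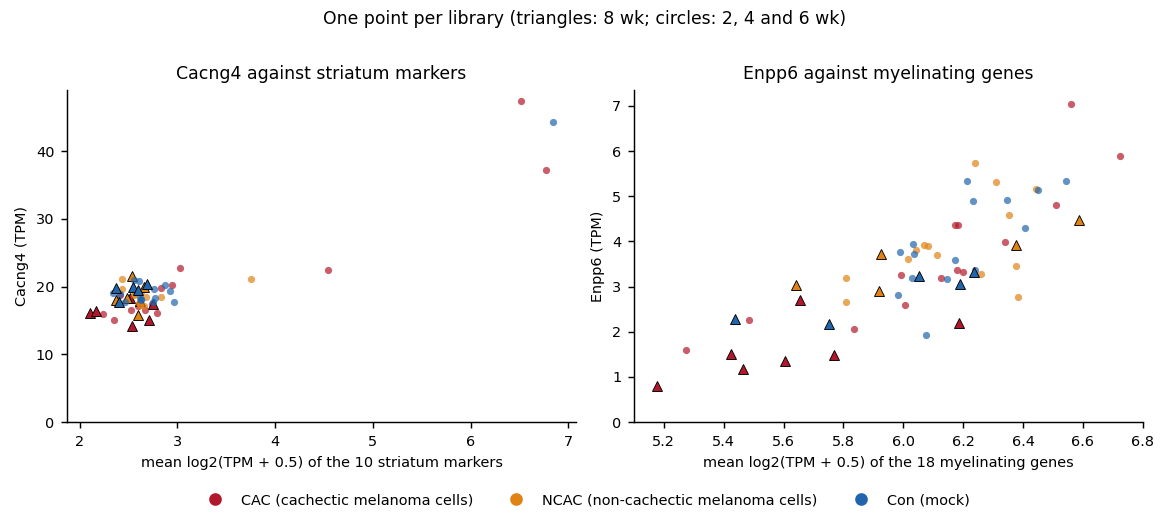
Cacng4 TPM against the mean log2(TPM + 0.5) of 10 striatum markers (left) and Enpp6 TPM against that of 18 myelinating genes (right), 1 point per library, coloured by injection, with triangles for 8 wk. The 3 Cacng4 points at 37.2 to 47.4 TPM stand at the right edge of the striatum axis, and the 7 red triangles of CAC mice at 8 wk lie at 0.809 to 2.71 TPM of Enpp6.

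Of the lineage factors, Olig2 differed at 8 wk. Olig2, a basic helix-loop-helix factor required to specify the lineage, was 13.8, 12.4, 14.7, 15.7, 16.7, 13 and 12.3 TPM in CAC mice, 14.8, 16.4, 19.1, 16.0 and 21.8 TPM in NCAC mice, and 16.5, 20.9, 18.0, 17.3 and 15.7 TPM in Con mice. Only 1 of 7 CAC libraries, replicate 5, exceeded the second-lowest Con library, and the groups overlapped. The difference from Con was -0.32 ± 0.11 (adjusted p = 0.0427, limma), or 0.802 times the Con level, and that from NCAC was -0.31 ± 0.11 (adjusted p = 0.128). The Con call was lost with no filter on low genes (adjusted p = 0.0604), with the trend on GC content and length removed (adjusted p = 0.091) and in 8 of 12 fits that left out 1 library.

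Olig1, the neighbouring helix-loop-helix factor needed for maturation and repair, was 53.3, 57.8, 58.8, 48.1, 85.7, 50.7 and 59.5 TPM in CAC mice at 8 wk, 70.7, 76.4, 58.3, 68.9 and 86.2 TPM in NCAC mice, and 72.0, 79.4, 76.1, 69.5 and 69.0 TPM in Con mice. All CAC libraries but replicate 5 were below all Con libraries, and the difference was -0.33 ± 0.13 against Con (adjusted p = 0.0843) and -0.30 ± 0.13 against NCAC (adjusted p = 0.258). Between 8 wk and 2 wk Olig1 rose in NCAC mice by 0.47 ± 0.14 (adjusted p = 0.0268, limma), with values at 2 wk of 59.1, 39.9, 38.7, 59.5 and 65.9 TPM. With the trend on GC content and length removed, that rise was 0.18 (adjusted p = 0.366). Leaving out any 1 of 4 libraries, NCAC replicates 2 and 3 at 2 wk and 2 and 5 at 8 wk, also ended the call, with adjusted p up to 0.165.

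Sox10, the high-mobility-group factor that activates myelin genes, averaged 27.4 ± 6.09 TPM in CAC, 31.6 ± 7.41 TPM in NCAC and 31.8 ± 4.81 TPM in Con mice at 8 wk. The difference was -0.20 ± 0.16 against NCAC (95% interval -0.52 to 0.12) and -0.22 ± 0.16 against Con (95% interval -0.55 to 0.10). No comparison of Sox10 passed the threshold as deposited. With the trend on GC content and length removed, the difference between 8 wk and 2 wk in CAC mice did, at -0.68 (adjusted p = 0.00217), against -0.28 ± 0.17 (adjusted p = 0.207) without that correction.

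At 2, 4 and 6 wk none of the 10 genes passed the threshold in any pair of injections by limma, and none by voom on the recovered reads. For CAC against Con the share of all tested genes called at these weeks was 3.7%, 0.801% and 0.25%, or 577, 125 and 39 genes. These counts became 12, 0 and 192 without the rich libraries and 0, 37 and 27 in a fit of the compared groups only. At an unadjusted p under 0.05 there were 2, 0 and 2 of the 10 genes, beside 22.8%, 17.9% and 12.1% of all tested genes. For CAC against NCAC the called share was 0%, 0.0128% and 1.77%. There, 1, 3 and 2 of the 10 genes had an unadjusted p under 0.05, beside 6.94%, 14% and 18.9% of all tested genes. For NCAC against Con no tested gene passed at 2, 4, 6 or 8 wk (0% each). An unadjusted p under 0.05 was found there for 2, 0, 1 and 0 of the 10 genes, beside 9.72%, 9.85%, 3.76% and 7.85% of all tested genes. Of the 10 differences, 8 were negative in CAC against Con at 6 wk and 7 at 8 wk, and 8 and 9 in CAC against NCAC, where 44.8% and 38.9%, and 41.5% and 43.1%, of all tested genes were negative. The median over the 10 at these weeks was -0.17 and -0.23 against Con and -0.14 and -0.19 against NCAC, beside 0.02 and 0.05, and 0.03 and 0.02, over all tested genes. At 4 wk the signs rested on the rich libraries: 9 of 10 were negative against Con and 7 against NCAC, beside 51.2% and 44.3% of all tested genes. Without those libraries 4 and 3 of the 10 were negative. At 2 wk, 7 of the 10 differences were positive in both comparisons, beside 63.8% of all tested genes against Con and 57.6% against NCAC. Both comparisons use the same CAC libraries.

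Averaged over the 4 weeks with equal weight, 4 of the 10 genes were lower in CAC than in NCAC, where 15.7% of all tested genes were called. Bmp4 differed by -0.38 ± 0.10 (adjusted p = 0.00918, limma), Enpp6 by -0.31 ± 0.11 (adjusted p = 0.0413), Olig1 by -0.22 ± 0.07 (adjusted p = 0.0309) and Gpr17 by -0.22 ± 0.06 (adjusted p = 0.0171). Relative to Con, Olig1 was lower by -0.24 ± 0.07 (adjusted p = 0.0154) and Neu4 higher by 0.15 ± 0.05 (adjusted p = 0.0402), 2 of the 10 where 19.8% of all genes were called. No gene was called in NCAC against Con (0%), and 0 of the 10 had an unadjusted p under 0.05, beside 2.43% of all tested genes. Without the 8 libraries rich in other tissue, 0 of these 6 calls remained: the differences from NCAC were then -0.29 for Bmp4 (adjusted p = 0.123), -0.25 for Enpp6 (0.197), -0.09 for Olig1 (0.553) and -0.23 for Gpr17 (0.0503), and those from Con -0.12 for Olig1 (0.368) and 0.10 for Neu4 (0.28), with adjusted p in parentheses.

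Over time, 4 of the 10 genes were lower at 8 wk than at 2 wk in CAC mice, namely Pdgfra, Cacng4, Gpr17 and Enpp6, where 31% of all tested genes were called. In NCAC mice 2 were called, Olig1 higher and Gpr17 lower, where 14% of all genes were called. In Con mice 1 was called, Gpr17, where 9.67% of all genes were called. The mock-injected groups were also collected weeks apart, although the labels give the same age at every week. The CAC and NCAC mice are set beside them only through the interactions given above.

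The newly formed and precursor stages were set against each other in each library as the mean log2(TPM + 0.5) of Gpr17, Enpp6, Bmp4 and Neu4 minus that of Pdgfra, Cspg4 and Cacng4. No test was made on this value. In CAC mice this difference averaged -0.92 ± 0.13, -1.22 ± 0.14, -1.12 ± 0.17 and -1.35 ± 0.26 at 2, 4, 6 and 8 wk (SD). In NCAC mice it averaged -0.76 ± 0.17, -0.85 ± 0.10, -0.996 ± 0.13 and -1.11 ± 0.10, and in Con mice -0.87 ± 0.08, -1.09 ± 0.22, -1.05 ± 0.17 and -1.17 ± 0.11. Without the rich libraries the CAC value was -0.85 at 2 wk (n = 2), -1.12 at 4 wk (n = 2) and -1.42 at 8 wk (n = 6). The 4 wk value was then -0.84 in NCAC mice and -1.02 in Con mice (n = 4 each). The mean difference was lower at 8 wk than at 2 wk under every injection. At 8 wk the single libraries ran from -1.77 to -0.97 with a median of -1.38 in CAC mice, from -1.25 to -0.99 with a median of -1.14 in NCAC mice and from -1.33 to -1.06 with a median of -1.14 in Con mice, so the groups overlapped. The precursor mean was 4.04 ± 0.08 in CAC, 4.12 ± 0.08 in NCAC and 4.07 ± 0.12 in Con mice, whereas the newly formed mean was 2.68 ± 0.21 in CAC, 3.01 ± 0.10 in NCAC and 2.90 ± 0.07 in Con mice. The 4 newly formed genes did not move alike at 8 wk. Enpp6 had the largest log2 differences, -1.01 against NCAC and -0.69 against Con. Bmp4 averaged 2.75, 2.86 and 3.17 TPM in CAC, NCAC and Con mice. Neu4 was higher in CAC mice, at 10.3 TPM, than in NCAC (9.18 TPM) and Con mice (8.24 TPM).

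**Figure D4:**
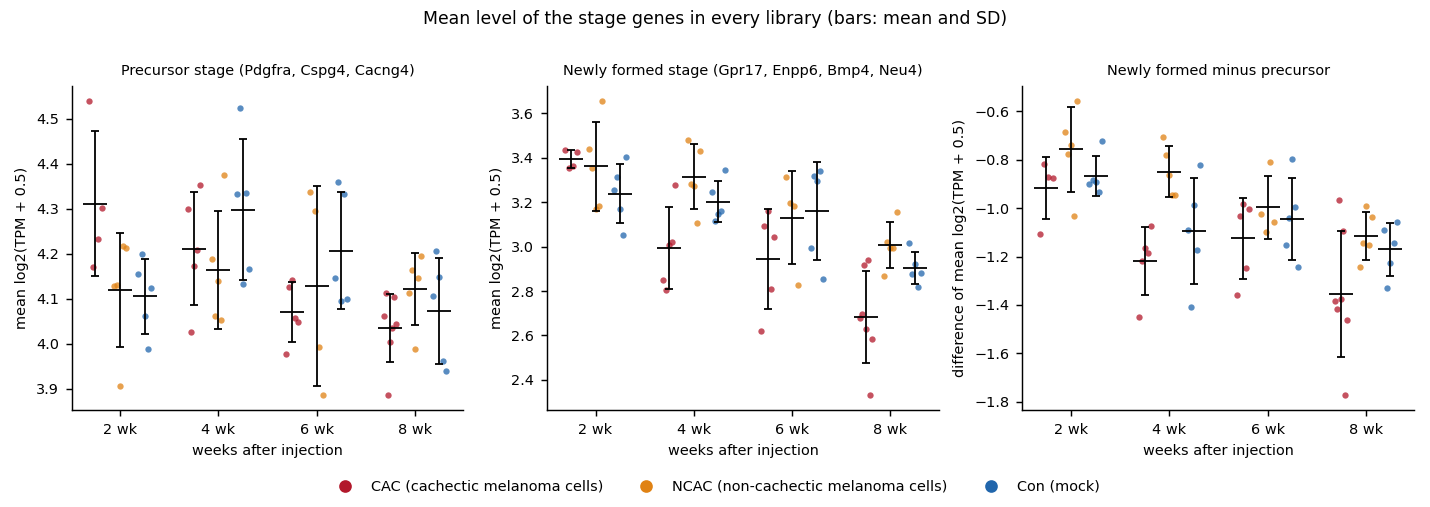
Mean log2(TPM + 0.5) of the 3 precursor genes (left), of the 4 newly formed genes (middle) and the second minus the first (right) in every library by week, with bars for the mean and SD of CAC (red), NCAC (orange) and Con (blue). At 8 wk the newly formed mean is 2.68 in CAC, 3.01 in NCAC and 2.90 in Con, while the precursor means lie at 4.04, 4.12 and 4.07. Of the 4 newly formed genes, Enpp6 differed most at 8 wk and Neu4 was higher in CAC.

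Within groups, the genes did not split along the 2 stages. Correlations were taken over the 60 libraries after subtraction of each group's mean, as a description, since libraries share tissue composition and scaling. The highest among the 45 pairs was Olig1 with Sox10 (Pearson r = 0.74, Spearman rho = 0.65, and r = 0.68 without the 2 libraries farthest from the median of Olig1). Enpp6 varied most closely with Sox10 (r = 0.56, rho = 0.59, and r = 0.58 without 2 libraries) and less with Gpr17 (r = 0.39, rho = 0.42, and r = 0.35). Pdgfra varied with Cspg4 (r = 0.54, rho = 0.53, and r = 0.51) and with Neu4 (r = 0.49, rho = 0.48, and r = 0.44). Neu4, listed with the newly formed genes, had r = -0.12 with Enpp6 (rho = -0.04, and r = 0.03 without 2 libraries). Cacng4 and Bmp4 gave the lowest value, r = -0.35 (rho = -0.19, and r = -0.24 without 2 libraries).

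Other tested genes were ranked in the same way, with predicted and clone-named genes left out. Those closest to the mean of the 4 newly formed genes were Clic4 (r = 0.77, rho = 0.74, and r = 0.73 without 2 libraries), Creb3l2, Nfasc, Rassf2 and Kif13a, the last with r = 0.72. Those closest to the mean of the 3 precursor genes were Pdgfrb (r = 0.75, rho = 0.72, and r = 0.76), Creb5, Itpr2, Sox6 and Slc22a23, the last with r = 0.69. Sox6 is among the 20 other precursor genes listed here, Itpr2 among the other newly formed genes, and Pdgfrb among the pericyte markers. The precursor mean had a median r of 0.41 with the pericyte markers and 0.31 with the other precursor genes. For the newly formed mean the median r was 0.44 with the myelinating genes, 0.39 with meningeal fibroblast markers and 0.37 with astrocyte markers. With the other newly formed genes it was 0.23.

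Other genes of the 2 stages were counted at 8 wk, where 14.5% of all tested genes were called against Con and 1.83% against NCAC. Of 20 further precursor genes, 1 rose and 3 fell in CAC against Con, with a median log2 difference of -0.06 beside 0.05 over all tested genes. Vcan, a matrix proteoglycan, rose by 0.34 ± 0.08 (adjusted p = 0.00539, limma), while Cspg5 differed by -0.32 ± 0.08 (adjusted p = 0.00989) and C1ql1 by -0.45 ± 0.12 (adjusted p = 0.0133). Against NCAC 0 rose and 1 fell, Cspg5 at -0.30 ± 0.08 (adjusted p = 0.0428). Of 16 tested further newly formed genes, 0 rose and 1 fell against Con, Nkx2-2, a homeodomain factor of the lineage, at -0.66 ± 0.20 (adjusted p = 0.0246). None passed against NCAC at 8 wk.

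Genes of myelinating oligodendrocytes, the next stage, were also counted. Of 18 such genes, all above 0 in every library, 0 rose and 4 fell in CAC at 8 wk against NCAC, where 1.83% of all tested genes were called, and 0 rose and 4 fell against Con, where 14.5% were, with medians of -0.43 against NCAC and -0.24 against Con. Against NCAC these included Opalin, a membrane protein of oligodendrocytes, at -1.51 ± 0.32 (adjusted p = 0.0077, limma), Aspa, which breaks down N-acetylaspartate, at -0.65 ± 0.16 (adjusted p = 0.0228) and Ugt8a, which makes the myelin lipid galactosylceramide, at -0.95 ± 0.25 (adjusted p = 0.0285). Against Con they included Opalin at -1.30 ± 0.32 (adjusted p = 0.00783) and Gjb1, a gap junction protein, at -0.75 ± 0.23 (adjusted p = 0.0244). The summed level of the 18 genes was 1774 to 3216 TPM in CAC mice at 8 wk, 2114 to 4003 TPM in NCAC mice and 1871 to 3030 TPM in Con mice. Their part in the Enpp6 difference was not tested.

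Between 8 wk and 2 wk in CAC mice, 1 of the 18 myelinating genes rose and 15 fell (median -0.87), 1 of 16 further newly formed genes rose and 8 fell (median -0.18), and 0 of 20 further precursor genes rose and 6 fell (median -0.20), beside a median of -0.06 over all tested genes, of which 31% were called. Ugt8a fell by 1.67, Opalin by 1.90, Tcf7l2 by 1.30 and Bcas1, a protein of newly myelinating cells, by 0.99, and Lhfpl3 by 0.64, all on the log2 scale. In NCAC mice 1 of the 18 rose and 0 fell, where 14% of all tested genes were called, and in Con mice 0 rose and 2 fell, where 9.67% were. The sum of the 18 was 1774 to 3216 TPM at 8 wk and 3435 to 4702 TPM at 2 wk in CAC mice. The CAC counts and falls are limited by the 4 libraries at 2 wk, of which only 2 were not rich in other tissue. CAC replicate 1 at 2 wk was rich in striatum and thalamus markers. Without the rich libraries, 2237 instead of 4831 of all tested genes were called in CAC mice. The counts of these lists were not redone without them.

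Partners of the 10 genes were counted in the same 8 wk comparisons, against the same shares of 14.5% of all tested genes called against Con and 1.83% against NCAC. Of the 4 PDGF ligands and Pdgfrb, 0 of 5 passed against either group. Of 21 genes of the BMP pathway, which carries the signal of Bmp4, 1 rose and 0 fell in each comparison: Smad1, a signal transducer, at 0.31 ± 0.07 against NCAC (adjusted p = 0.0154, limma) and 0.25 ± 0.07 against Con (adjusted p = 0.0216). Under median-of-ratios scaling 0 of the 21 passed against Con. Of 17 tested regulators of the lineage, Gpr37, a receptor that slows differentiation, fell against NCAC at -0.50 ± 0.13 (adjusted p = 0.0282), and Hes5, a Notch target, differed from Con by -0.74 ± 0.23 (adjusted p = 0.0226), while Chd8 rose by 0.16 ± 0.05 (adjusted p = 0.0274). The CAC-NCAC difference of Gpr37 also changed between 2 wk and 8 wk, by -0.84 ± 0.20 (adjusted p = 0.0438). Of 4 tested relatives of Enpp6, Enpp1 was lower in CAC than in Con by -0.63 ± 0.16 (adjusted p = 0.00844), and none passed against NCAC. None of the 3 other sialidases and none of the 5 other TARP genes passed in either comparison, although under median-of-ratios scaling 1 TARP gene did against Con. Of 7 tested genes of dividing cells, Mki67 fell against Con by 0.46 (SE 0.14, adjusted p = 0.0233), and none passed against NCAC.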

How the data were processed

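Hippocampal RNA of 60 libraries was prepared with the TruSeq stranded mRNA kit and sequenced on an Illumina NovaSeq instrument, per the labels' protocols. The authors deposited a table of TPM, scaled by gene length and library total. The genome build was mm10, per the submitters' processing notes. For the aligner, the counting tool and the annotation, the labels name none. Because TPM shares a fixed total, abundant genes shift the others. Whole reads were recovered from the TPM steps for 24227 of 24227 genes above 0 (100%, tolerance 0.02 read), giving 32388189 to 42046797 reads per library, and were used only in an alternative voom fit, which called 1605 genes in CAC against Con and 360 in CAC against NCAC at 8 wk.

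Group means of log2(TPM + 0.5) for the 12 groups were fitted with limma 3.58.1 in R 4.3.3, with a variance trend, for genes at 1 TPM or more in at least 4 libraries (15608). P-values were adjusted by Benjamini-Hochberg, with a threshold of 0.05. This scale understates changes of low genes. On simulated data for CAC against Con at 8 wk, over 15608 genes, the fit recovered 75% of 1.5-fold and 90% of 2-fold changes. The simulated noise was drawn separately for each gene, so other tissue or scaling shared within a library was not part of it. These rates average over genes of all levels and are not those of low genes such as Enpp6 and Bmp4. The members and all gene lists were chosen with earlier results of these data known, so no list was tested and no stage score has a p-value. All 10 genes are named; of each other list, up to 3 genes with the smallest p in a comparison are named, except where an item is not reported here, and for likeness the 5 genes with the highest correlation. Alternatives were other pseudocounts (0.1 and 1), filters, median-of-ratios scaling, no variance trend, a replicate block, voom, removal of GC content and length trends (splines of 5 degrees of freedom, 96.3% of tested genes), fits without 8 libraries rich in other tissue or blood, fits of the compared groups alone, and each library left out. Any 2 libraries differed in the reads of at least 18751 genes. Exon overlaps were read from GENCODE release M21.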

Additional observations from a re-analysis of the deposited data

Results flagged for a closer look

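In groups of 4 to 7 libraries, 5 single values stood far from the rest of their group, among 120 gene and group combinations examined, of which chance flags about 1 in 20. Olig1 was 75.4 TPM in CAC replicate 5 at 2 wk, where the others held 44.4 to 48.8 TPM, and 85.7 TPM in CAC replicate 5 at 8 wk, where the others held 48.1 to 59.5 TPM. Sox10 was 51.1 TPM in the same CAC library at 2 wk, against 27.0 to 29.7 TPM in the others. Cspg4 was 11.9 TPM in NCAC replicate 5 at 4 wk, against 8.94 to 9.48 TPM. Cacng4 was 44.3 TPM in Con replicate 2 at 4 wk, a library rich in striatum markers, against 17.8 to 20.8 TPM.

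The CAC-NCAC difference of Enpp6 changed by -1.42 on the log2 scale between 2 wk and 8 wk (adjusted p = 0.0289, limma interaction), with -1.01 at 8 wk and 0.41 at 2 wk. The call was lost with the replicate block (-1.25, adjusted p = 0.0934), which takes CAC replicates 6 and 7 out of the 8 wk mean. It was also lost in 8 of 21 fits that left out 1 library, among them that without CAC replicate 1 at 2 wk (-1.29, adjusted p = 0.114). Without all 8 libraries rich in other tissue or blood it held, at -1.47 (adjusted p = 0.0155).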

How the results depend on the processing

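No difference of the 10 genes past the threshold changed sign in any alternative fit, but differences short of it did at 4 wk without the rich libraries, among them Enpp6 (0.05 against NCAC and 0.06 against Con). Of 18 calls, 3 held in all 11 alternatives and with each library left out: Enpp6 in CAC against NCAC at 8 wk (-1.27 to -0.83 over the alternatives), and Enpp6 (-1.75 to -1.31) and Gpr17 (-0.91 to -0.83) in CAC at 8 wk against 2 wk. The stage difference moved by less than 1 SD with a pseudocount of 0.1 or 1 TPM.

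The number of the 10 genes called changed as follows, and the cause was not tested. For CAC against Con at 8 wk it was 3, and 2 with no filter or with GC content and length trends removed, 4 with voom or in a fit of the compared groups only, and 5 without the libraries rich in other tissue. For CAC against NCAC at 8 wk it was 1, and 2 under median-of-ratios scaling, with GC content and length trends removed, or without the rich libraries. For the CAC-Con mean over weeks it was 2, and 1 with no filter, 3 under median-of-ratios scaling or with voom, 0 without the rich libraries and 1 in a fit of the compared groups only. For the CAC-NCAC mean it was 4, and 3 with no filter, 0 without the rich libraries and 2 in a fit of the compared groups only. For 8 wk against 2 wk it was 4 in CAC mice, and 2 without the rich libraries and 3 in a fit of the compared groups only. It was 2 in NCAC mice, and 1 with GC content and length trends removed, 3 without the rich libraries and 0 in a fit of the compared groups only. It was 1 in Con mice, and 0 with no filter, under median-of-ratios scaling, with voom, or with GC content and length trends removed.

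With 1 library left out, the number called ran from 0 to 4 for CAC against Con at 8 wk, 1 to 4 for the CAC-Con mean, 1 to 2 for CAC against NCAC at 8 wk, 2 to 4 for the CAC-NCAC mean and 0 to 1 for the change of the CAC-NCAC difference. It ran from 3 to 4 in CAC, 0 to 3 in NCAC and 0 to 2 in Con mice for 8 wk against 2 wk, and was 0 in every other comparison.

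The deviations of 308 pairs of libraries with the same replicate number had a median correlation of -0.004 (-0.37 to 0.42). For 1339 pairs with different numbers it was -0.0003 (-0.50 to 0.49). Such medians cannot tell whether some replicate numbers share a batch. With the replicate block, 0 of the 10 genes were called in CAC against Con at 8 wk, 1 in the CAC-Con mean, 3 in the CAC-NCAC mean and 0 in the change of the CAC-NCAC difference. Replicate numbers 6 and 7 occur only in CAC at 8 wk, so the block also takes these libraries out of that group's mean. Losses under the block therefore cannot be set down to blocking alone.

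Over all tested genes, CAC against Con at 8 wk called 2256 genes, and 988 with the block to 3718 without the rich libraries. CAC against NCAC at 8 wk called 285 (51 with the block to 1236 without the rich libraries), the CAC-Con mean 3095 (1550 without the rich libraries) and the CAC-NCAC mean 2446 (967 without them). For 8 wk against 2 wk the count was 4831 in CAC (2237 without the rich libraries), 2189 in NCAC (240 in a fit of the compared groups only) and 1509 in Con mice (18 with GC content and length trends removed, 3166 in a fit of the compared groups only). The change of the CAC-NCAC difference gave 37 (0 with the block to 115 with GC content and length trends removed). Scaling moved the balance of higher and lower calls: CAC against Con at 8 wk gave 1757 higher and 499 lower, and 722 and 719 under median-of-ratios scaling, and CAC at 8 wk against 2 wk gave 1692 and 3139, and 2398 and 2054. The like pairs were 730 and 1459, and 1088 and 576, in NCAC mice and 261 and 1248, and 489 and 484, in Con mice. They were 2323 and 772, and 1350 and 1241, for the CAC-Con mean, and 1804 and 642, and 1193 and 1054, for the CAC-NCAC mean. For CAC against Con at 2 wk they were 268 and 309, and 75 and 424, and for CAC against NCAC at 6 wk 207 and 69, and 159 and 107. Low reads limit Enpp6 and Bmp4 most.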
